A study of Arabidopsis thaliana with 15 samples.

Results

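Roots fixed after the tenth parabola of a flight were compared with roots fixed after the first. The comparison took the 3 arrays labelled parabola 10 and the 4 arrays labelled parabola 1, which are 7 of the 15 arrays of the series, and covered all 16550 genes that had a row annotated to exactly 1 gene. A gene with several such rows was represented by the brightest of them on average.

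All seedlings were Arabidopsis thaliana of the Wassilewskija (WS) cultivar, 10 days old, grown in continuous light, and all carried pCaMV35S:14-3-3κ:GFP, in which a viral promoter active in most plant tissues drives a 14-3-3 protein fused to green fluorescent protein. No group without this transgene was analysed here. The seedlings rode on a C-9 aircraft in Kennedy fixation tubes (sealed tubes that release a fixative on command) and were fixed with RNAlater in level flight (n = 4) or after parabola 1 (n = 4), parabola 3 (n = 4) or parabola 10 (n = 3). Whole roots were then dissected, and total RNA of each root pool was measured on 1 AraGene 1.0 ST array.

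During a parabola an aircraft pulls up, then follows a free-fall arc with close to no effective gravity, and pulls up again, so plants on board meet repeated swings between high and low load together with vibration. Roots sense gravity through starch-filled plastids in the root cap, and mechanical load through membrane channels and calcium signals. Known transcript responses to touch and load include calmodulin-like calcium sensors, transcription factors of the WRKY and zinc finger families, and enzymes that remodel the cell wall.

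The pools of each condition came from a single tube. Number of parabolas, tube and time on board therefore cannot be told apart, and p-values measure the spread between root pools of 1 tube. Values are log2 expression levels as the authors deposited them, and changes are parabola 10 minus parabola 1 with the standard error (SE) of a limma fit to all 15 arrays. A gene was called at a Benjamini-Hochberg adjusted p under 0.05 over all 16550 genes.

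Array medians over the tested genes lay between 3.65 and 3.70. The rows of the table without an assigned gene stood apart between the groups. Their array medians were 3.93 to 4.02 after parabola 1 and 3.69 to 3.85 after parabola 10, without overlap, against 3.84 to 3.92 in level flight and 3.78 to 3.98 after parabola 3. Of the root cell markers listed, EXPA7 and EXPA18, expansins of root hairs, were among the tested genes. EXPA7 averaged 5.98 after parabola 1 and 6.48 after parabola 10 (0.50 ± 0.15 SE, adjusted p = 0.0785), and EXPA18 6.51 and 6.55 (0.04 ± 0.16 SE). Markers of the non-hair cells, root cap, endodermis, xylem, phloem and meristem were not analysed here, so the whole-root label was checked on these 2 genes alone. Of 19 shoot photosynthesis genes listed, 2 were measured and neither was called, with RCA at 0.23 and LHCB4.1 at −0.11. In whole-root RNA, fewer cells of a type and less RNA per cell cannot be told apart.

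Between parabola 1 and parabola 10, 589 genes changed, which was 3.56% of the genes tested. Of these, 287 (1.73%) were higher after parabola 10 and 302 (1.82%) were lower. A change of at least 2-fold was reached by 22 of the higher genes (0.133%) and 45 of the lower genes (0.272%). The called changes had a median size of 0.63 on the log2 scale and a smallest size of 0.31. The signed change had a median of 0.04 over all genes. The arrays of the groups did not overlap in 573 of the 589 called genes, against 14.7% of all genes. Level flight and parabola 3 values are given beside them for orientation.

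The count of 589 moved with single arrays, in both directions. It was 282 without parabola 10 replicate 1, 274 without parabola 10 replicate 2, 364 without parabola 1 replicate 1 and 321 without parabola 1 replicate 2. Without parabola 10 replicate 3 it was 761, and without a level flight or parabola 3 array it ran from 498 to 648. The 7 arrays fitted alone gave 366. Centring each array on the 3 measured reference genes gave 287 higher and 173 lower genes. Of those calls 62.4% were higher, against 48.7% in the counts above. The reference genes were PEX4 (−0.23, without overlap between the groups), AT2G28390 (0.09) and AT4G34270 (0.00). None of them was called, but the centring leans on few genes. With the array median of the rows without a gene as a covariate, limma called 3 genes, namely AT3G27950 (2.26), LCR73 (1.24) and AT1G61890 (−1.16). In that fit the median SE of the 589 genes went from 0.14 to 0.22, and their median change in their own direction from 0.63 to 0.50. The covariate itself separated parabola 1 from parabola 10 without overlap, so that fit could only partly tell the covariate and the comparison apart.

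**Figure D1:**
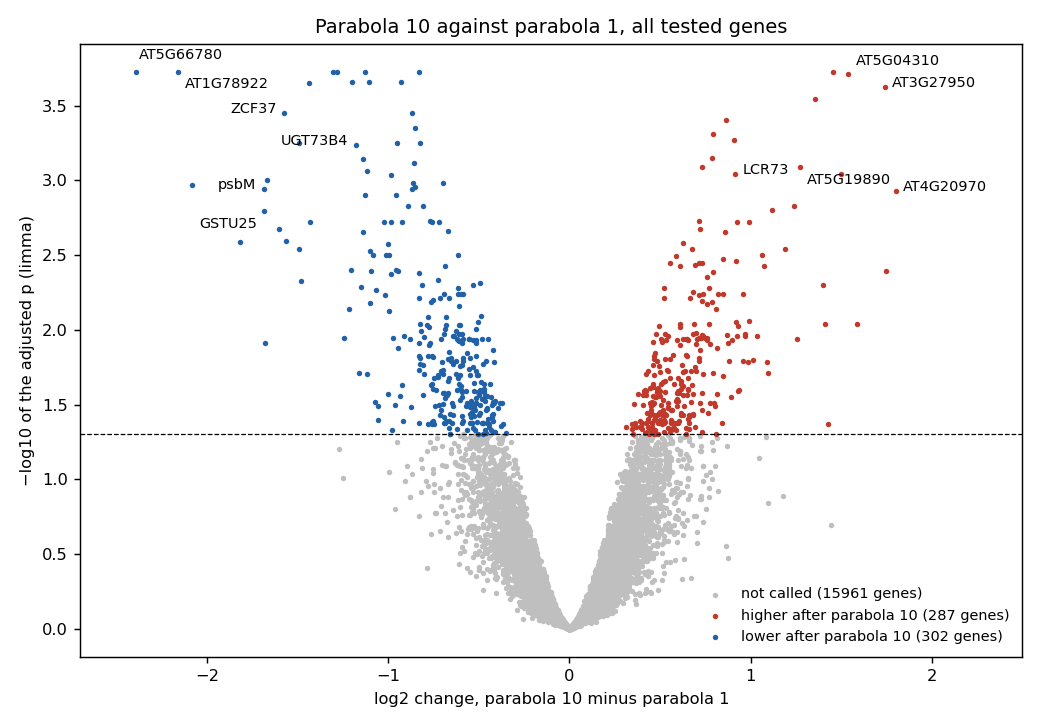
Each point is 1 of the 16550 tested genes, with its log2 change (parabola 10 minus parabola 1) on the horizontal axis and −log10 of its limma adjusted p on the vertical axis. The dashed line marks an adjusted p of 0.05, above which lie 287 genes that were higher (red) and 302 that were lower (blue), and the falls reach further from 0 (AT5G66780, −2.40) than the rises (AT4G20970, 1.80).

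Among the genes that rose most were a pectate lyase-like gene, 2 class III peroxidases, a basic helix-loop-helix (bHLH) gene and PPDK. The 15 largest rises ranged from 1.19 to 1.80 on the log2 scale. They were taken among called genes whose groups did not overlap, so the lack of overlap was a condition of the choice.

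AT4G20970 rose most. It read 2.75, 2.62, 2.41 and 2.69 in the 4 parabola 1 arrays and 5.32, 4.47 and 3.46 in the 3 parabola 10 arrays. Every parabola 10 array lay above every parabola 1 array, although the parabola 10 arrays spanned a wide range. The gene was 3.49-fold higher (1.80 ± 0.27 SE, adjusted p = 0.00118), with level flight at 2.21 to 2.47 and parabola 3 at up to 3.52.

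AT3G27950 read 3.81, 4.02, 3.52 and 3.93 after parabola 1 and 5.77, 5.23 and 5.68 after parabola 10. The groups lay well apart, and the gene was 3.35-fold higher (1.74 ± 0.21 SE, adjusted p = 0.000239). The level flight arrays, at 3.74 to 4.08, overlapped the parabola 1 arrays, and the parabola 3 arrays, at 4.76 to 5.84, covered the range of parabola 10.

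AT5G04310 belongs to the pectate lyase-like family, whose members cut the pectin of plant cell walls. It read 5.10, 5.28, 5.41 and 5.37 after parabola 1 and 7.30, 6.84 and 6.35 after parabola 10. All parabola 10 arrays were higher, by 2.91-fold on average (1.54 ± 0.18 SE, adjusted p = 0.000194). Level flight lay below both groups at 4.90 to 4.97, and parabola 3 at 6.00 to 6.67.

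The bHLH gene AT2G43140, of a family of DNA-binding transcription factors, read 5.11, 5.26, 5.74 and 5.58 after parabola 1 and 7.10, 6.73 and 6.50 after parabola 10. It was 2.56-fold higher (1.36 ± 0.17 SE, adjusted p = 0.000287). The groups did not overlap, and the parabola 3 arrays (6.83 to 7.30) reached above those of parabola 10, while level flight lay at 4.51 to 4.95.

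PPDK encodes pyruvate orthophosphate dikinase, which forms phosphoenolpyruvate from pyruvate. It read 3.84, 3.89, 3.70 and 4.07 after parabola 1 and 5.19, 5.45 and 4.57 after parabola 10, a rise of 2.28-fold (1.19 ± 0.20 SE, adjusted p = 0.00286). The lowest parabola 10 array lay above the highest parabola 1 array. Level flight, at 3.46 to 4.02, overlapped parabola 1, and parabola 3 lay at 4.68 to 5.40.

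The other largest rises were AT4G39675 (1.75), AT5G48430 (1.59), AT2G38600 (1.50), AT5G40590 (1.45), AT2G01023 (1.43), AT3G03670 (1.41), AT3G13760 (1.40), AT5G19890 (1.27), AT1G50580 (1.25) and AT1G55380 (1.24). AT3G13760 was highest in level flight and lowest after parabola 1 by group mean. It read 5.74 to 6.13 in level flight, 3.96 to 4.42 after parabola 1, 4.67 to 5.21 after parabola 3 and 4.74 to 6.26 after parabola 10, so the parabola 10 arrays again reached the range of level flight. Without parabola 10 replicate 1, the calls of AT1G50580 (adjusted p = 0.0705), AT5G48430 (0.0559) and AT3G03670 (0.0557) were lost. AT2G01023 lost its call in 10 of the 15 fits that left out an array, with an adjusted p of up to 0.213. Those arrays were level flight replicates 3 and 4, all of parabola 1, parabola 3 replicates 2 and 3, and parabola 10 replicates 1 and 2.

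**Figure D2:**
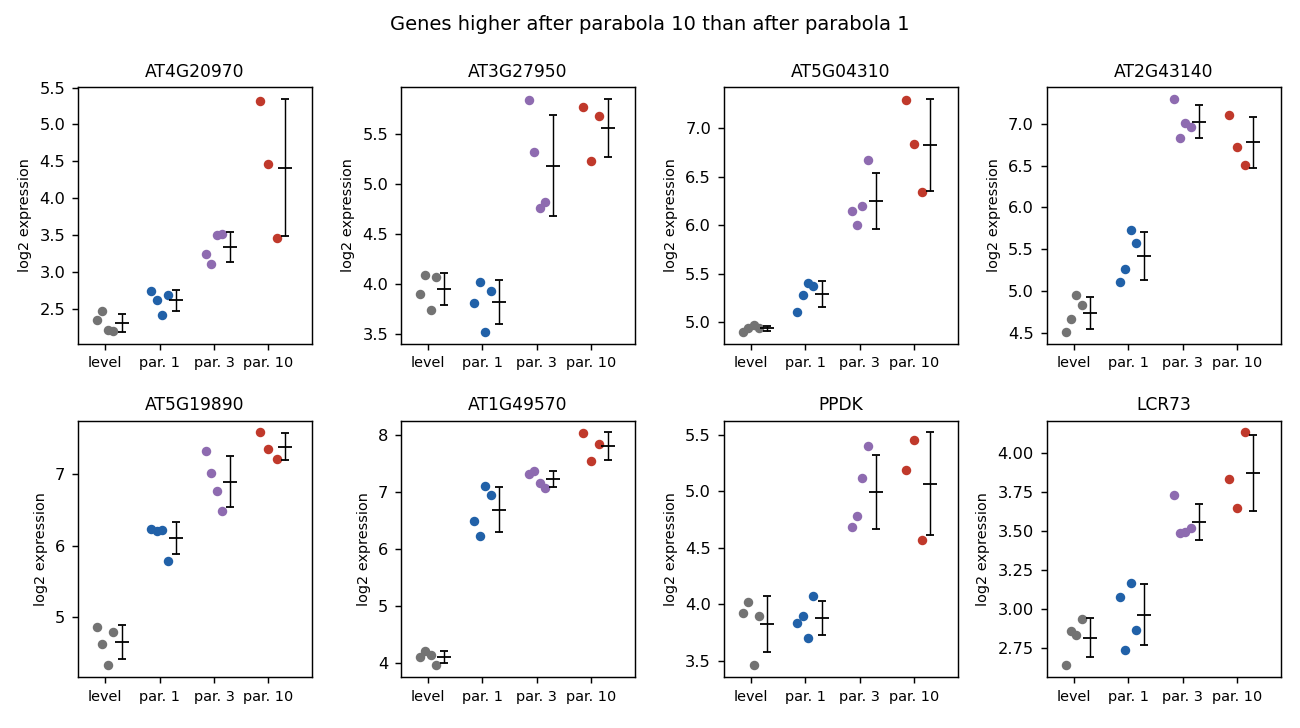
Log2 expression (vertical axis) of 8 genes that rose, by group, with 1 point per array and the mean ± SD (black) beside each group of 4, 4, 4 and 3 arrays. In each panel every parabola 10 array (red) lies above every parabola 1 array (blue), and in AT5G04310, AT2G43140, AT5G19890 and AT1G49570 every parabola 1 array also lies above every level flight array.

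Outside the 15 largest rises, those with the smallest p-values were smaller changes with a narrow spread. TINY, listed as tny, encodes a transcription factor of the AP2/ERF family. It read 5.65, 5.85, 5.75 and 5.82 after parabola 1 and 6.55, 6.58 and 6.54 after parabola 10 (0.79 ± 0.10 SE, adjusted p = 0.000493). The parabola 10 arrays lay close to each other, and level flight (6.24 to 6.44) lay between the groups. AT1G23205 (0.86), AT1G78020 (0.91), AT1G70680 (0.79) and AT4G30460 (0.73) were the other rises chosen for their small p-values. Of these, AT4G30460 also had its level flight arrays (5.16 to 5.40) between those of parabola 1 (4.71 to 4.84) and those of parabola 10 (5.48 to 5.55). AT1G70680 lay below the array median on all arrays, at 1.63 to 1.80 after parabola 1 and 2.42 to 2.56 after parabola 10.

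Class III peroxidases are secreted heme enzymes that use hydrogen peroxide to cross-link or loosen the cell wall. Of 73 peroxidase genes listed by locus, 64 were measured, and 9 rose and 0 fell (14.1% called, against 1.73% of all genes higher). The family's median change was 0.14, against 0.04 over all genes, and its members ranged from −0.48 to 1.41. At an unadjusted p under 0.05, limma had 21 members higher and 1 lower, and with trend and robust moderation it called 10 higher and 0 lower. The list was drawn up with results of these data known, so the count is a description of the family.

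AT5G19890 read 6.23, 6.20, 6.22 and 5.78 after parabola 1 and 7.58, 7.35 and 7.21 after parabola 10 (1.27 ± 0.18 SE, 2.42-fold, adjusted p = 0.000819). AT1G49570 read 6.49, 6.23, 7.10 and 6.94, then 8.04, 7.55 and 7.84 (1.12 ± 0.17 SE, 2.17-fold, adjusted p = 0.00157). In both peroxidases the groups did not overlap and level flight lay lower still, at 4.33 to 4.86 for AT5G19890 and 3.95 to 4.20 for AT1G49570. AT3G03670 read 2.80, 3.12, 4.09 and 3.16 after parabola 1 and 5.33, 4.26 and 4.51 after parabola 10 (1.41 ± 0.28 SE, 2.66-fold, adjusted p = 0.00912). Its groups came close, with parabola 1 replicate 3 just below parabola 10 replicate 2.

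AT4G33420 read 9.34 to 9.67 after parabola 1 and 10.11 to 10.29 after parabola 10 (0.72 ± 0.12 SE, adjusted p = 0.00212). Its level flight arrays, at 9.58 to 9.89, lay below those of parabola 10 and overlapped those of parabola 1. AT2G37130 (0.61), AT1G30870 (0.59), AT4G25980 (0.59), AT4G37530 (0.58) and PRXR1 (0.35) completed the 9 members. AT1G30870 had 5.76 to 6.26 in level flight, 5.62 to 6.00 after parabola 1 and 6.33 to 6.44 after parabola 10, so its level flight arrays overlapped those of parabola 1 and lay below those of parabola 10. The count of 9 was 5 without parabola 1 replicate 2, without parabola 1 replicate 4 or without parabola 10 replicate 2, and 3 without parabola 10 replicate 1. AT5G19890, AT1G49570 and AT4G33420 were called in all 15 of the fits that left out an array. AT2G37130 and AT3G03670 each lost the call in 1 of these fits, AT1G30870 in 5, AT4G37530 in 9, AT4G25980 in 10 and PRXR1 in 14.

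Of the 26 pectate lyase-like loci, 23 were measured. AT5G04310 and AT3G09540 rose and 0 fell (8.70% called, against 1.73% of all genes higher), and the median was 0.13. AT5G48900 was at −0.77 (± 0.22 SE, adjusted p = 0.0560), with groups that did not overlap. With trend and robust moderation, 2 members were called higher and 1 lower. AT3G09540 read 6.58 to 6.82 after parabola 1 and up to 7.67 after parabola 10 (0.65 ± 0.15 SE, adjusted p = 0.0209). Its groups did not overlap, but the call was lost without parabola 1 replicate 3, parabola 10 replicate 1 or parabola 10 replicate 2, with an adjusted p of up to 0.124. Of 24 measured expansins, proteins that loosen the wall, EXLB1 rose (0.74 ± 0.14 SE, adjusted p = 0.00577) and 0 fell, with a median of 0.14. Of 33 xyloglucan endotransglucosylases (XTH) listed, 10 were measured. Limma called 0 of these in either direction, with or without trend and robust moderation, and 2 were lower at an unadjusted p under 0.05.

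Among 71 measured defensin-like genes, small secreted cysteine-rich proteins, LCR73 and PDF1.4 rose and 0 fell (2.82% called, median 0.08). That share is close to the 1.73% of all genes that were higher. LCR73 read 3.08, 2.74, 3.17 and 2.86 after parabola 1 and 3.84, 3.65 and 4.14 after parabola 10 (0.91 ± 0.13 SE, 1.88-fold, adjusted p = 0.000911). The groups lay apart, with level flight at 2.64 to 2.94 and parabola 3 at 3.49 to 3.73. PDF1.4 rose by 1.09 ± 0.25 SE (adjusted p = 0.0194), with parabola 1 at 3.32 to 4.52, parabola 10 at 4.72 to 5.29 and level flight, at up to 4.99, across both. Its call was lost without parabola 1 replicate 3, parabola 10 replicate 1 or parabola 10 replicate 2 (adjusted p up to 0.104).

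Cytochrome P450 genes encode heme-containing monooxygenases of many plant metabolic routes. Of 26 measured of 260 listed, CYP71B29 (1.07 ± 0.19 SE, adjusted p = 0.00375) and CYP71B37 (0.93 ± 0.15 SE, adjusted p = 0.00189) rose and 0 fell (7.69% called). Over all genes, 1.73% were higher. CYP71B29 read 5.46, 5.71, 5.81 and 5.39 after parabola 1 and 7.22, 6.55 and 6.21 after parabola 10, without overlap. Members of other families rose as well. ATL5, of the ATL family of RING-type ubiquitin ligases, rose by 0.97 ± 0.20 SE (adjusted p = 0.0110), and lost its call without parabola 10 replicate 1 (0.0610). HON4, of the linker histone family, rose by 0.49 ± 0.10 SE (adjusted p = 0.00946). Besides the bHLH gene AT2G43140 above, ILR3, a bHLH factor of iron homeostasis, rose by 0.45 ± 0.10 SE (adjusted p = 0.0244). ILR3 lost its call without parabola 1 replicate 1, 2 or 4 or parabola 10 replicate 1 or 2 (up to 0.122).

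The largest falls were deeper than the largest rises, and the 15 largest ranged from −2.40 to −1.44. They too were chosen among called genes whose groups did not overlap. Named members among them were the photosystem II gene psbM, the glutathione transferase GSTU25 and ZCF37.

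AT5G66780 fell most. It read 6.94, 7.54, 7.01 and 6.93 after parabola 1 and 5.19, 4.18 and 4.76 after parabola 10. The groups were far apart, and the gene was 5.26-fold lower (−2.40 ± 0.26 SE, adjusted p = 0.000188). Level flight (6.47 to 7.58) covered the range of parabola 1, and parabola 3 (5.45 to 6.27) lay between parabola 1 and parabola 10.

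AT1G78922 read 6.00, 6.22, 5.91 and 5.79 after parabola 1 and 4.35, 3.74 and 3.36 after parabola 10, and was 4.47-fold lower (−2.16 ± 0.23 SE, adjusted p = 0.000188). Here too level flight (5.54 to 6.35) overlapped parabola 1, and the parabola 3 arrays (4.41 to 5.18) lay between the groups without touching either.

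GSTU25 encodes a tau-class glutathione transferase, an enzyme that joins glutathione to reactive compounds. It read 5.52, 5.24, 5.43 and 5.91 after parabola 1 and 3.60, 4.07 and 3.84 after parabola 10, and was 3.22-fold lower (−1.69 ± 0.26 SE, adjusted p = 0.00161). The parabola 10 arrays lay below all arrays of the other groups, with level flight at 5.49 to 6.51 and parabola 3 at 4.57 to 5.77. Of 15 measured glutathione transferases, from 49 listed, it alone was called, and the median of the measured members was −0.10.

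ZCF37 read 5.64, 6.34, 5.55 and 5.93 after parabola 1 and 4.58, 4.14 and 4.15 after parabola 10, 2.98-fold lower (−1.58 ± 0.20 SE, adjusted p = 0.000354). Its parabola 1 arrays already lay below level flight (7.74 to 8.06), and those of parabola 10 below parabola 3 (5.23 to 5.99). AT5G07870 showed the same order, with 9.90 to 10.24 in level flight, 8.73 to 9.29 after parabola 1 and 7.19 to 7.91 after parabola 10 (−1.44 ± 0.17 SE, adjusted p = 0.000222).

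In 5 of the 15 largest falls, 1 parabola 3 array stood apart from the rest of its group, as was seen after the genes were chosen. For psbM, AT4G36791 (−2.08), AT4G30097 (−1.82), AT3G41762 (−1.68) and AT5G10340 (−1.48), parabola 3 replicate 1 read 8.18, 7.32, 5.65, 8.55 and 8.26. The other parabola 3 arrays lay at 6.90 to 7.30, 5.41 to 6.36, 3.73 to 4.19, 6.55 to 6.84 and 6.81 to 7.30. The same array had the highest median of rows without a gene in its group, 3.98 against 3.78 to 3.81 in the other parabola 3 arrays. AT3G41762 lost its call without parabola 10 replicate 1 (adjusted p = 0.0783). With the array median of the rows without a gene as a covariate, limma called none of these 5 genes. That covariate separated parabola 1 from parabola 10 without overlap, so its part in these falls cannot be told apart from the comparison.

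The remaining large falls were AT1G73480 (−1.67), AT1G71520 (−1.60), AT5G28520 (−1.56), AT5G07860 (−1.49) and AT5G54165 (−1.49). The falls chosen for their small p-values were AT3G22550 (−1.31), AT4G23050 (−1.29), AT5G38200 (−1.20), AT5G15190 (−1.13) and NTMC2T6.2 (−0.83). AT5G15190 followed a course of its own. It read 4.67 to 4.93 in level flight, 5.62 to 5.97 after parabola 1, 4.48 to 4.64 after parabola 3 and 4.49 to 5.02 after parabola 10, so only the parabola 1 arrays stood apart from the others. AT3G22550 was likewise highest after parabola 1, at 4.48 to 4.89 against 3.96 to 4.40 in level flight, and lay at 3.02 to 3.63 after parabola 10.

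**Figure D3:**
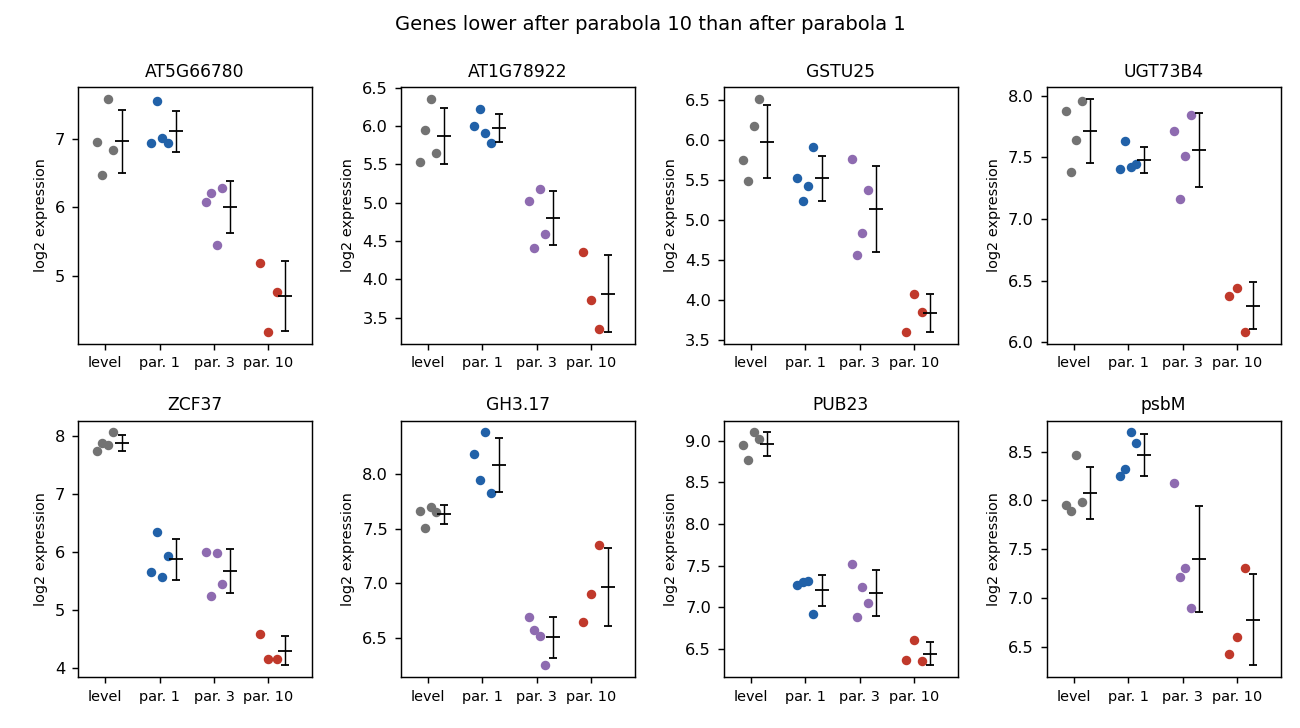
Log2 expression (vertical axis) of 8 genes that fell, by group, with 1 point per array and the mean ± SD (black) beside each group of 4, 4, 4 and 3 arrays. Every parabola 10 array (red) lies below every parabola 1 array (blue), level flight (grey) lies above all other arrays for ZCF37 and PUB23, and parabola 3 replicate 1 stands apart for psbM at 8.18.

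UDP glycosyltransferases (UGTs) attach sugars to hormones, defence compounds and foreign chemicals. Of 55 measured, 5 fell and 0 rose (9.09% called, against 1.82% of all genes lower, median 0.01). Of these, 4 were of the UGT73 group, in which 4 of 10 measured members were called with a median of −0.33, against 1 of 45 with a median of 0.01 in the other UGTs. The split by group was made after the values were seen.

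UGT73B4 read 7.41, 7.64, 7.42 and 7.45 after parabola 1 and 6.37, 6.44 and 6.08 after parabola 10, 2.27-fold lower (−1.18 ± 0.16 SE, adjusted p = 0.000580). UGT73B5 read 5.90, 5.88, 5.94 and 6.08, then 4.99, 4.78 and 5.04, 2.02-fold lower (−1.01 ± 0.17 SE, adjusted p = 0.00318). In both, the parabola 10 arrays lay below every other array of the series, with parabola 3 at 7.16 to 7.85 for UGT73B4 and 5.73 to 6.42 for UGT73B5. UGT73C7 (−1.08 ± 0.26 SE, adjusted p = 0.0304), UGT87A2 (−0.66 ± 0.17 SE, adjusted p = 0.0406) and UGT73B2 (−0.57 ± 0.14 SE, adjusted p = 0.0306) were the other called members. The count of 5 was 3 without parabola 1 replicate 1 or 4, and 2 without parabola 1 replicate 2, parabola 1 replicate 3 or parabola 10 replicate 2. Centring each array on the measured reference genes also left 3. UGT73B4 and UGT73B5 were called in all 15 of the fits that left out an array.

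GH3 enzymes join amino acids to auxin and other hormones and so lower the free pool. Of 6 measured, 2 fell and 0 rose (33.3% called, against 1.82% of all genes lower). GH3.17 read 8.18, 7.94, 8.38 and 7.83 after parabola 1 and 6.64, 6.90 and 7.35 after parabola 10, 2.17-fold lower (−1.12 ± 0.16 SE, adjusted p = 0.000866). Its groups did not overlap, level flight lay between them at 7.50 to 7.70, and parabola 3 reached lowest, at 6.25 to 6.69. GH3.3 read 5.61, 6.35, 6.41 and 5.95 after parabola 1 and 5.49, 5.35 and 5.05 after parabola 10 (−0.78 ± 0.21 SE, adjusted p = 0.0423). The gap between its groups was small, and the call was lost without any 1 of 10 of the 15 arrays (adjusted p up to 0.126). Those arrays were all of level flight, parabola 1 replicates 2 to 4 and all of parabola 10. WES1 (−0.26), GH3.4 (0.15), GH3.9 (0.21) and GH3.1 (0.33) were not called.

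Of 32 Aux/IAA genes listed, repressors of auxin response, 8 were measured, and 0 of these were called by limma with either moderation. Unadjusted p-values under 0.05 were found for 1 higher and 1 lower member. Of the 2 LAZY-like genes measured, which set the growth angle of roots, AT1G72490 (LZY3) read 5.04, 5.51, 5.24 and 5.34 after parabola 1 and 4.95, 4.28 and 4.14 after parabola 10 (−0.83 ± 0.18 SE, adjusted p = 0.0155). Parabola 10 replicate 1 lay only just below the parabola 1 arrays, and the call was lost without parabola 1 replicate 2, parabola 10 replicate 2 or parabola 10 replicate 3 (up to 0.0829). AT1G17400 (LZY2) was at −0.09 and was not called.

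Of 34 rapid stress genes listed, 5 were measured, and the others were not analysed here. All 5 had negative values, with a median of −0.53, and PUB23 was called. PUB23 encodes a U-box ubiquitin ligase of defence and drought responses. It read 7.27, 7.30, 7.31 and 6.92 after parabola 1 and 6.37, 6.60 and 6.35 after parabola 10 (−0.76 ± 0.14 SE, adjusted p = 0.00654). Its level flight arrays were higher than both groups, at 8.78 to 9.10, and parabola 3 (6.88 to 7.52) overlapped parabola 1. Its relatives PUB24 (−0.61, adjusted p = 0.0643) and PUB22 (−0.23), the zinc finger factor STZ (−0.53) and the glutaredoxin GRX480 (−0.26) were not called.

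VQ motif proteins bind WRKY transcription factors. Of 21 measured of 34 listed, AT1G17147 and AT4G20000 fell and IKU1 rose (14.3% called, against 3.56% of all genes, median 0.14). AT1G17147 read 4.75, 4.83, 4.47 and 4.80 after parabola 1 and 3.39, 3.56 and 3.81 after parabola 10 (−1.13 ± 0.17 SE, 2.18-fold lower, adjusted p = 0.00126). Its groups lay apart and level flight was highest, at 6.47 to 6.94. AT4G20000 fell by 0.63 on the log2 scale (adjusted p = 0.0199) and lost its call without parabola 1 replicate 3 or 4 or parabola 10 replicate 3 (up to 0.0743). IKU1 rose by 0.45 (adjusted p = 0.0451) and lost its call in 12 of the 15 fits that left out an array, the exceptions being those without parabola 3 replicate 1 or 2 or parabola 10 replicate 3 (up to 0.206). Of 72 WRKY genes listed, 7 were measured, and 0 of these were called by limma with either moderation. At an unadjusted p under 0.05, 2 of them were lower.

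Of 9 measured heat shock genes, AT2G29500 (HSP17.6B), a small chaperone, was called. It read 5.43, 5.35, 4.98 and 4.87 after parabola 1 and 4.55, 3.82 and 4.48 after parabola 10 (−0.88 ± 0.22 SE, adjusted p = 0.0328), without overlap. The call was lost without parabola 1 replicate 1, parabola 1 replicate 2 or parabola 10 replicate 2 (up to 0.184). AT1G52560 had the larger value of −1.27 but a wider spread (± 0.36 SE, adjusted p = 0.0630). Of 6 measured genes of the abscisic acid, cold and dehydration list, KIN1, a cold-inducible gene, was called (−1.06 ± 0.26 SE, adjusted p = 0.0321). It read 6.26, 6.29, 5.71 and 5.42 after parabola 1 and 4.36, 5.24 and 5.00 after parabola 10, and lost its call without parabola 1 replicate 1, parabola 1 replicate 2 or parabola 10 replicate 1 (up to 0.162). Its neighbour in name KIN2 was at −0.11. Of 6 measured glutaredoxins, small thiol-disulfide enzymes, GrxC5 fell (−0.92 ± 0.14 SE, adjusted p = 0.00189), and ROXY2 was at 0.73 without a call (adjusted p = 0.0812).

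Touch and calcium genes, the calmodulin-like sensors named above as known responses to load, gave no call between these groups. Of 14 measured of 28 listed, 0 were called by limma with either moderation, and 0 reached an unadjusted p under 0.05. Their values ran from −0.27 (AT3G47480, ± 0.17 SE) to 0.30 (CML42, ± 0.17 SE) with a median of 0.00. CML38 averaged 4.56 after parabola 1 and 4.49 after parabola 10 (−0.08 ± 0.21 SE), and CML37 2.75 and 2.77 (0.02 ± 0.17 SE). In level flight CML38 averaged 6.69 and CML37 3.46, above both groups. The level flight means of CML42 (5.9) and AT3G47480 (2.4) lay below both groups. The comparison of parabola 10 with parabola 1 therefore does not cover changes from level flight. Of 15 hypoxia genes listed, 3 were measured, namely PDC2 (−0.02), AT4G17260 (0.02) and AT3G10040 (0.04). None of them was called, and none had an unadjusted p under 0.05 or a call with trend and robust moderation.

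**Figure D4:**
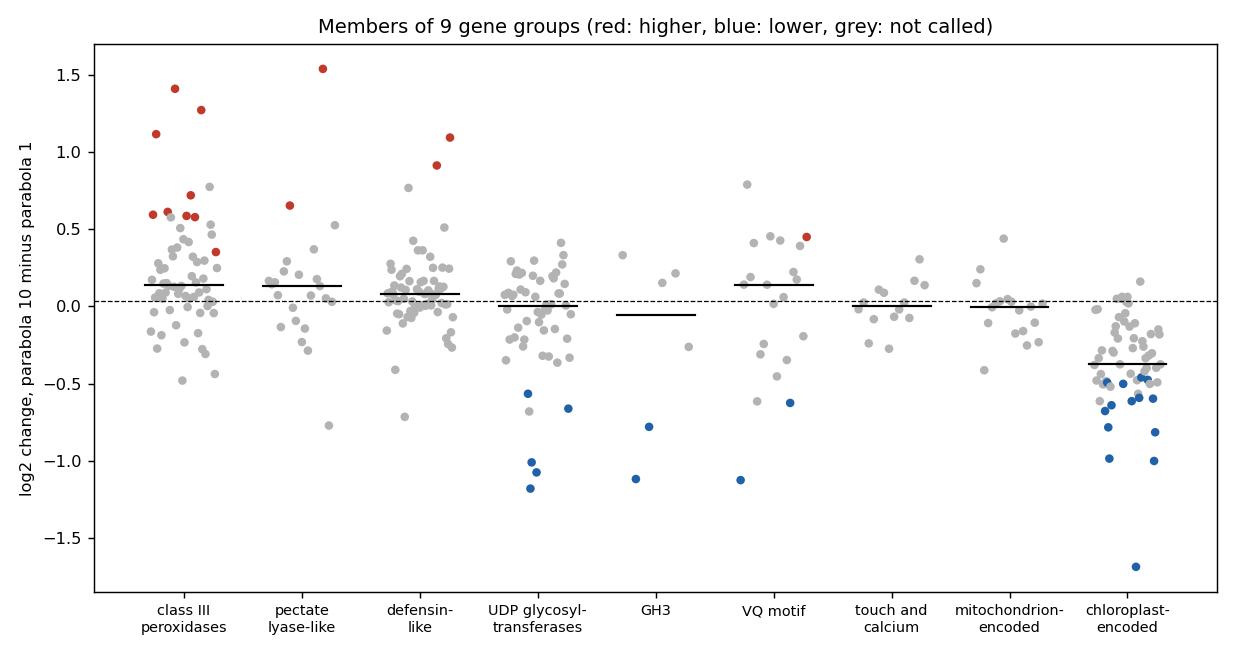
Log2 change (vertical axis, parabola 10 minus parabola 1) of each measured member of 9 gene groups, with called members in red (higher) or blue (lower), the group's median as a solid bar and the median of all genes (0.04) as a dashed line. All 9 called peroxidases lie above 0 and all 14 called chloroplast-encoded genes below it, and no touch and calcium or mitochondrion-encoded gene was called.

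The chloroplast genome, carried by all plastids including those of roots, encodes subunits of the photosynthetic complexes, of the NDH complex (a plastid NAD(P)H dehydrogenase-like complex), of the plastid ribosome and of a plastid RNA polymerase. Of 63 measured chloroplast-encoded genes, 14 fell and 0 rose (22.2% called, against 1.82% of all genes lower). Their median was −0.38, and 56 of 63 had a negative value. At an unadjusted p under 0.05, 36 were lower and 0 higher, and with trend and robust moderation 20 were lower.

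The calls were spread over the complexes. Of the ndh genes 5 of 10 fell (median −0.51), of the rps genes for the small ribosomal subunit 3 of 7 (−0.49), and of the psb genes for photosystem II 3 of 13 (−0.27). Among the rpl genes for the large ribosomal subunit 1 of 6 fell, among the rpo genes for RNA polymerase 1 of 4, and among the psa genes for photosystem I 1 of 5. None of 6 pet genes (cytochrome b6f complex) and none of 4 atp genes (ATP synthase) was called by limma. Of these, 1 pet and 2 atp genes were lower at an unadjusted p under 0.05, and trend and robust moderation called 0 and 1. The difference between complexes was not tested.

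psbM, a small subunit of photosystem II, read 8.25, 8.32, 8.70 and 8.59 after parabola 1 and 6.42, 6.60 and 7.30 after parabola 10, 3.22-fold lower (−1.69 ± 0.25 SE, adjusted p = 0.00115). The groups lay well apart, and level flight (7.89 to 8.47) was nearer to parabola 1. ndhG, of the NDH complex, read 8.32, 8.39, 8.46 and 8.29, then 7.30, 6.92 and 7.92 (−0.99 ± 0.17 SE, adjusted p = 0.00421). rps16, a small-subunit ribosomal protein gene, read 7.86, 7.86, 7.95 and 7.87, then 6.79, 6.45 and 7.41, with means of 7.89 and 6.89 (SE of the change 0.16, adjusted p = 0.00267).

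In all 3 genes every parabola 10 array lay below every parabola 1 array, and parabola 10 replicate 3 was the highest of its group. In rps18 (−0.82 ± 0.15 SE) and psbI (−0.61 ± 0.10 SE) that array was again the highest of the 3, at 9.70 and 11.53. The other called members were ndhF (−0.78), ndhC (−0.68), ndhI (−0.64), ndhE (−0.49), psbZ (−0.59), rps15 (−0.60), psaC (−0.50), rpoA (−0.48) and rpl14 (−0.46).

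The mean over the 63 genes was 10.18, 10.20, 10.40 and 10.23 in the parabola 1 arrays and 9.85, 9.66 and 10.15 in the parabola 10 arrays. The groups nearly met, through parabola 10 replicate 3. In level flight the means were 9.96, 9.96, 10.27 and 9.96, and after parabola 3 they were 9.97, 9.99, 10.14 and 10.02. The array numbered 3 was thus the highest in each group, and level flight, apart from that array, lay below all parabola 1 arrays.

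The count of 14 was 5 without parabola 10 replicate 2, 6 without parabola 10 replicate 1 or parabola 1 replicate 3, 8 without parabola 1 replicate 1, 9 without parabola 1 replicate 2, and 30 without parabola 10 replicate 3. It was 6 when the 7 arrays were fitted alone and 7 when each array was centred on the measured reference genes. The rows without a gene moved in the same direction, with array medians that fell between the same groups. With that median as a covariate, 0 chloroplast-encoded genes were called, but the covariate itself separated the groups without overlap. The part of those rows in the chloroplast values was not otherwise tested. The 18 measured mitochondrion-encoded genes were assigned by gene name, as no locus was given for them. They had a median of 0.00 and a range from −0.41 to 0.44, and limma called 0 under either moderation. Unadjusted p-values under 0.05 were found for 1 higher and 2 lower genes.

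**Figure D5:**
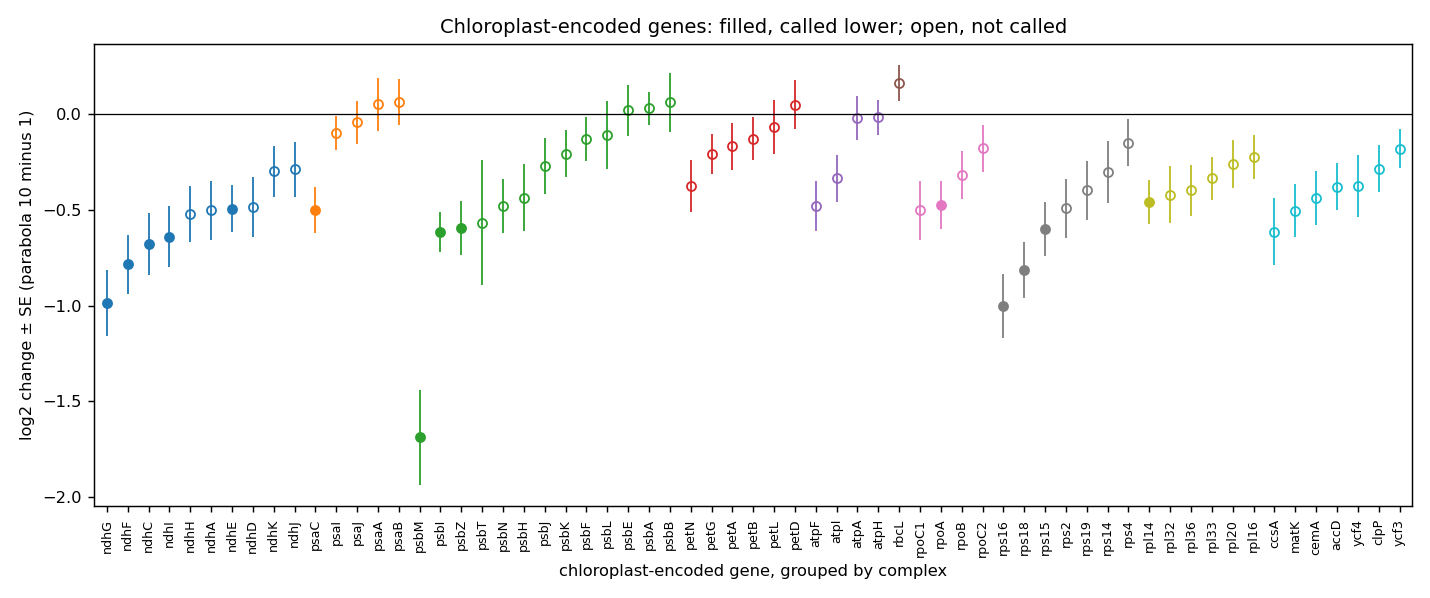
Log2 change ± SE (vertical axis, parabola 10 minus parabola 1) of the 63 chloroplast-encoded genes, ordered along the horizontal axis by complex and by value, with filled points for the 14 genes called lower. Of the 63 values 56 are negative, all 10 ndh genes lie below 0, and psbM stands lowest at −1.69.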

How the data were processed

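The authors deposited log2 expression values, 1 row per probe set and 1 column per array, in a table of 38408 rows. Per the submitters' processing notes, RMA, oligo, limma, R 4.0.0 and TAIR10 were used; the order of these tools and any filter are not stated. The annotation gave exactly 1 gene to 16722 rows, several to 759 and none to 20927. After the brightest row of each of 146 genes with several rows was kept, 16550 genes were tested, of which 16411 matched the reference table of TAIR10.1. That is not the build of the notes, so no coordinates are given, and 14741 genes are named by locus.

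A model of group means over all 15 arrays was fitted by limma 3.58.1 (lmFit, eBayes; R 4.3.3), tests were two-sided, and p-values were adjusted by Benjamini and Hochberg. The scripts were tested on simulated data. Among called genes whose groups did not overlap, the 15 largest rises and falls were named, with the 5 further rises and 5 falls of smallest p. Up to 4 members of each list were named by smallest p, called or not. Further members of the families described are named too. Of 78 lists and families, 24 had no measured member and 25 had a called one. The members and lists were chosen with earlier results of these data known. The locus lists of peroxidases, pectate lyase-like and VQ genes were added after the data were seen, as were the UGT73 split and the choice of chloroplast genes by chromosome. Mitochondrion-encoded genes were taken by gene name among genes that did not match the reference table. AT1G61890 was named after its value was seen. Members that shared only a name with a family, such as cyclophilins with cytochrome P450 genes, were taken out of it after the data were seen. Precision is limited by the number of arrays.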

Additional observations from a re-analysis of the deposited data

Results flagged for a closer look

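In 16 of 211 named genes tested, 1 of the 4 parabola 1 arrays lay far from the other 3 by Dixon's criterion, which chance meets in about 1 in 20 groups. Among called genes the outlying values were 2.67 for AT2G01023 (others 4.14 to 4.23), 5.78 for AT5G19890 (6.20 to 6.23), 7.54 for AT5G66780 (6.93 to 7.01), 6.92 for PUB23 (7.27 to 7.31) and 2.81 for CYP71B37 (3.19 to 3.25). For the chloroplast genes they were 7.95 for rps16, 11.18 for petA, 11.68 for psaB and 10.42 for rpoA, of which petA and psaB were not called. Among other genes that were not called they were 6.51 for CML42, 3.47 for CML43, 6.46 for LTI30, 2.39 for PME61, 7.45 for WRKY29, 6.52 for WRKY47 and 4.75 for IAA18. Without the outlying array, AT2G01023 and rpoA were not called. Both also lost the call without any 1 of the other parabola 1 arrays.

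The rows without an assigned gene, which the comparison did not use, also changed. In a test of all 38408 rows, 999 of the 20927 such rows were called (4.77%), 201 higher and 798 lower after parabola 10, and 446 of the lower rows fell at least 2-fold. Most of the 2-fold falls, 280, lay among the 7083 rows before the first annotated row of the table, where 322 rows were lower and 7 higher.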

How the results depend on the processing

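The counts follow as all called genes, higher, lower, chloroplast-encoded lower, peroxidases higher and UGTs lower, which were 589, 287, 302, 14, 9 and 5. Leaving out each of the 15 arrays in turn gave 274 to 761 called genes, 115 to 433 higher, 143 to 328 lower, 5 to 30 chloroplast-encoded genes, 3 to 9 peroxidases and 2 to 6 UGTs. The 7 arrays fitted alone gave 366 genes, 153 of them higher, and 6 chloroplast-encoded genes. Centring on the 3 measured reference genes gave 173 lower genes, 7 chloroplast-encoded genes and 3 UGTs. It put the share of called genes that were higher at 62.4%, against 48.7% in the main fit and 39.2% after median centring, and shifted the median of all genes from 0.04 to 0.08. All rows tested together gave 1525 calls, 449 higher and 1076 lower, with 3 UGTs. The covariate of rows without a gene gave 3 calls, 2 higher and 1 lower, and 0 in the chloroplast, peroxidase and UGT groups. At an adjusted p under 0.01 there were 154 calls, 61 higher and 93 lower, with 6 chloroplast-encoded genes, 5 peroxidases and 2 UGTs. With a 2-fold minimum as well as an adjusted p under 0.05 there were 67, 22 higher and 45 lower, with 2, 3 and 3. The replicate number as a block gave 537 calls, of which 450 were shared, and 23 chloroplast-encoded genes. Over all tested genes, replicate numbers did not pair the arrays. Deviations from the group means of same-numbered parabola 1 and parabola 10 arrays correlated at −0.068, 0.031 and −0.047, and 1 of the 3 parabola 10 arrays correlated best with its own number. The mean of the chloroplast-encoded genes, however, was highest in replicate 3 of each group. No alternative reversed the direction of a named gene that was called, and the cause of the differences was not tested.

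The comparison rests on 3 and 4 pools from 1 tube each, so tube, time on board and number of parabolas cannot be told apart. Of 84 named genes called, 82 lost the call with the covariate, which itself separated the groups without overlap. The call was lost by 26 without parabola 10 replicate 1 and by 24 without parabola 10 replicate 2. Of the called genes, 36 higher and 8 lower ones lay below the array median on all arrays, where signal over background limits what can be measured.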
